A study of Mus musculus with 12 samples.

Results

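The report covers 10 genes, Dnmt3a, Tet2, Asxl1, Ezh2, Kmt2a, Kdm6a, Bcor, Stag2, Ppm1d and Dnmt3b, put together as regulators linked to clonal hematopoiesis and taken by symbol from a table of 53465 genes. Most of them act on chromatin and are mutated in clonal hematopoiesis or in myeloid neoplasms. Ppm1d is a phosphatase of the p53 response and not itself a chromatin regulator, and Dnmt3b is the sister enzyme of Dnmt3a and not a common target of such mutations. Clonal hematopoiesis is the expansion of blood cells that descend from a single mutated stem cell. Most of the mutations known to give a stem cell this advantage lie in enzymes that write or erase marks on DNA and histones, in Polycomb and cohesin subunits, or in regulators of the p53 response. Here none of the genes was mutated on purpose, and what was measured was their RNA level.

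RNA-seq was done on LSKs, the Lin- Sca1+ c-Kit+ cells of mouse bone marrow (BM) that hold the hematopoietic stem cells (HSCs) and multipotent progenitors. The libraries formed 4 groups, with 3 libraries each and 12 in all: LSKs of untreated Tespa1+/+ mice (wild-type littermates), of untreated Tespa1-/- mice, and of both genotypes at day 9 after a single injection of 150 mg/kg 5-fluorouracil (5-FU), a drug that kills dividing cells. The mice were male, 8 to 10 weeks old, and the knockouts carried a germline allele (B6.129S-Tespa1tm1Smoc) after more than 6 generations of backcrossing to C57BL/6. The labels do not state how many mice gave each library or whether the libraries of a group came from separate mice, so p-values measure the spread between these libraries, which may be technical.

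Library totals ran from 22118154 to 28275079 counts, and each of the 10 genes received between 452 and 9831 counts in every library. Levels are given in CPM, which are counts relative to the library total after TMM scaling. Tespa1 itself read 49.8, 43.0 and 46.6 CPM in the untreated Tespa1+/+ libraries and 34.5, 35.0 and 34.8 CPM in the untreated Tespa1-/- libraries. After 5-FU it read 47.2, 55.0 and 57.5 CPM in Tespa1+/+ and 20.8, 19.8 and 17.3 CPM in Tespa1-/-. The knockout libraries were thus lower without overlap in both treatments, by -0.42 ± 0.09 (log2, SE) and -1.47 ± 0.12, but reads on the gene remained, and counts over a whole gene do not show which exons they fell on. Of the markers of the sort, Kit was high in every library (329 to 474 CPM), whereas Ly6a, which encodes Sca-1, was low in every library (10.6 to 45.2 CPM). The summed level of 10 LSK and stem cell markers was 1600 to 1670 CPM in untreated Tespa1+/+, 1330 to 1380 CPM in untreated Tespa1-/-, 1330 to 1370 CPM in Tespa1+/+ after 5-FU and 800 to 868 CPM in Tespa1-/- after 5-FU. The Tespa1-/- libraries after 5-FU also held 14 neutrophil genes at a summed 1160 to 1170 CPM (21.4 to 49.2 CPM in the other groups), 11 erythroid genes at 665 to 672 CPM (102 to 164 CPM elsewhere) and 20 G2/M genes at 5150 to 5260 CPM (3520 to 3770 CPM elsewhere). The summed level of 14 B and T cell genes was 48.3 to 76.4 CPM in untreated and 267 to 328 CPM in treated libraries, with Cd3e, the defining T cell gene, at 0 to 1.39 CPM throughout. The sums of S-phase genes (2960 to 3410 CPM, 18 genes) and of genes with long transcripts (7170 to 7660 CPM, 19 genes) held a narrower range. Single genes of both lists moved, however. Between genotypes after 5-FU, 7 S-phase genes were called, all higher, and 8 long-transcript genes, 4 higher and 4 lower (13.1% of all genes). The S-phase sums there were 2960 to 3020 CPM in Tespa1+/+ and 3240 to 3410 CPM in Tespa1-/-. With 5-FU, 6 long-transcript genes were called in Tespa1+/+ and 10 in Tespa1-/- (7.95% and 19.4% of all genes). The LSK and stem cell markers also separated the untreated genotypes, with 3 of 10 called and all 10 of lower sign in Tespa1-/- (median -0.29 on the log2 scale, 5.23% of all genes called). Their sums weigh the abundant markers most and do not give the direction of each. With 5-FU in Tespa1+/+, where the sum was lower, 8 of 10 markers had a higher sign (median 0.37), with 2 called higher and 2 lower. With 5-FU in Tespa1-/-, 3 were called higher and 3 lower (median -0.22). These shifts are part of the background of each comparison, untreated genotypes included, and their part in the levels of the 10 genes was not tested. In bulk libraries, fewer cells of a type and less RNA per cell cannot be told apart.

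The promoters of 4 genes that hold a searched motif are shown, since Dnmt3a and Ppm1d were the members that passed the test in a comparison, Ezh2 held the most matches, and Kdm6a shares its motif with Dnmt3a. They are RefSeq windows (GRCm38.p6) of 250 bases before to 50 bases after a start site, in the direction of the gene, and capitals mark the matches. Ezh2 lies on the minus strand at chr6:47594981-47595280, Ppm1d on the plus strand at chr11:85311004-85311303, Dnmt3a, at the most downstream of its 3 listed starts, on the plus strand at chr12:3891494-3891793, and Kdm6a on the plus strand at chrX:18162325-18162624.
Ezh2: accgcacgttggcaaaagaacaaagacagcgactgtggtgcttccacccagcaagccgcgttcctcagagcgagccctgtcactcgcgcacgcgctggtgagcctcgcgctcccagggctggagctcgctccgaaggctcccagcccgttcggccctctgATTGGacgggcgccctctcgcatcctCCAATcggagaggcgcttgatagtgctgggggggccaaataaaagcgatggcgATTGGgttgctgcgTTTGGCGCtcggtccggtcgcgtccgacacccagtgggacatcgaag
Ppm1d: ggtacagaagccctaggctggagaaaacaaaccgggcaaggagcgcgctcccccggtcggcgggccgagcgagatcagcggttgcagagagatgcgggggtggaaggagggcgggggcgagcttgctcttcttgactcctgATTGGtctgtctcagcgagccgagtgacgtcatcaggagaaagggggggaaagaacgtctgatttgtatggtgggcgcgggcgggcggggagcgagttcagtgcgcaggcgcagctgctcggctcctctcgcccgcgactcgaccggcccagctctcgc
Dnmt3a: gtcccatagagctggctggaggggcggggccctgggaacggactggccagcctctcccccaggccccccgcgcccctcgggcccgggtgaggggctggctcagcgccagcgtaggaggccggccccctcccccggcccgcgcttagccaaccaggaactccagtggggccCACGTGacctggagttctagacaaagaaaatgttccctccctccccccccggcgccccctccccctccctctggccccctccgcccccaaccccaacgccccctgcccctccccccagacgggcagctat
Kdm6a: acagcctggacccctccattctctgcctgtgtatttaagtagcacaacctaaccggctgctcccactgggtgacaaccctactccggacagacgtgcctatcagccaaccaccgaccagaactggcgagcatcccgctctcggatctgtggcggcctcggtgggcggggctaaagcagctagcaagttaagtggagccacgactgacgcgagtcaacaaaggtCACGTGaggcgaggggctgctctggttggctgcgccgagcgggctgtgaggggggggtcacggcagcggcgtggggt
The search took exact matches on both strands, so that CCAAT on the opposite strand reads ATTGG. Windows were found for 9 of the 10 genes, 12 windows in all. TTTGGCGC, an E2F motif, occurred in the Ezh2 window and in 0.514% of 32851 RefSeq promoters of the same length. CCAAT, the NF-Y motif, occurred at 3 places in the Ezh2 window and at 1 place in the Ppm1d window, and in 37.4% of all promoters. CACGTG, the E-box of Myc and related factors, occurred in the Dnmt3a and Kdm6a windows and in 7.15% of all promoters. A second E2F motif, TTTCCCGC (1.07% of all promoters), and the ETS motif CCGGAAGT (3.89%) had no match in the 12 windows. All 12 windows held more CG dinucleotides than the median of 7 over all promoters, from 13 in the Asxl1 window to 57 in the Tet2 window. A match is a description of these letters, not of binding.

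Per kilobase of gene model the 10 genes spanned a wide range, from a mean over 12 libraries of 25.4 CPM per kb for Stag2 to 3.65 CPM per kb for Tet2. The order between them was Asxl1 (21.1), Bcor (19.9), Kmt2a (15.9), Ezh2 (14.7), Dnmt3b (9.28), Ppm1d (9.19), Kdm6a (5.04) and Dnmt3a (3.70 CPM per kb). The ranges of neighbours over the 12 libraries did not overlap at the steps from Ezh2 to Dnmt3b and from Ppm1d to Kdm6a, and overlapped at the others. Within libraries, Stag2 was above Asxl1 and Bcor above Kmt2a in 12 of 12 as well, and the other neighbours kept their order in 6 to 11 of 12. Dnmt3a and Tet2, which are the most often mutated of these genes in human clonal hematopoiesis, were the lowest per kilobase, on gene models of 29.2 and 30.0 kb that merge all annotated transcripts.

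Across the 12 libraries the genes differed in steadiness. The SD of log2(CPM + 1) was 0.067 for Tet2, 0.086 for Stag2 and 0.096 for Asxl1, and 1.43%, 4.92% and 7.41% of the 9435 genes with a mean of at least 10 CPM had a smaller one. Dnmt3a (0.272), Ppm1d (0.244) and Kmt2a (0.215) lay above the median of those genes, 0.198. The highest group mean was 1.04 times the lowest for Tet2 and 1.41 times the lowest for Dnmt3a, the ends of the range for the 10 genes.

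**Figure D1:**
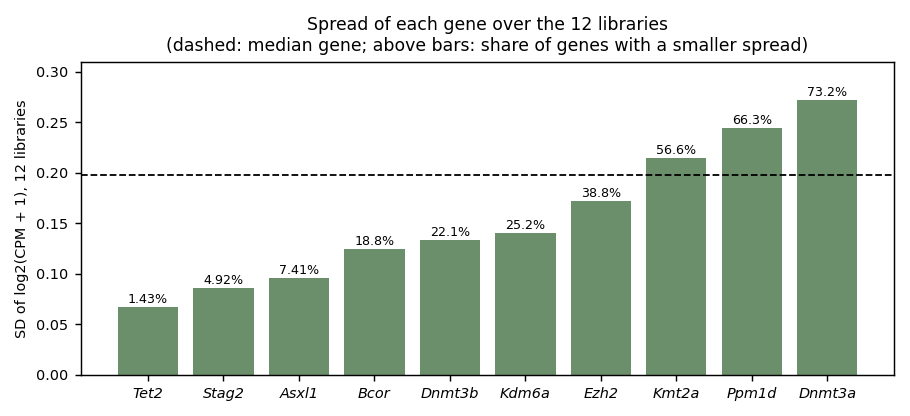
SD of log2(CPM + 1) over the 12 libraries for each of the 10 genes (bars), with the median of 9435 genes as a dashed line and, above each bar, the percentage of those genes with a smaller SD. Tet2 has the smallest spread (0.067) and Dnmt3a the largest (0.272).

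Differences between groups were small for the 10 genes in all comparisons. Between genotypes in untreated LSKs, edgeR's quasi-likelihood test called 0 of 10 genes at a Benjamini-Hochberg adjusted p below 0.05, where 5.23% of 17055 genes tested were called. At an unadjusted p below 0.05 there were 4 (Asxl1, Kmt2a, Bcor and Stag2), with 18.5% of all genes, and DESeq2 called 2 (Kmt2a and Bcor), against 5.92% of 22540 genes. Between genotypes after 5-FU, edgeR called 0 of 10, against 13.1% of 17239 genes, with 2 at an unadjusted p below 0.05 (Ezh2 and Bcor, 26.7% of all genes). DESeq2 called 1 (Ezh2), against 13.9% of 20350 genes. After 5-FU in Tespa1+/+, 1 of 10 was called (Dnmt3a, higher), against 7.95% of 17002 genes. DESeq2 called 2 (Dnmt3a and Kmt2a), against 9.86%, and the same 2 passed an unadjusted threshold of 0.05 in edgeR (21.5% of all genes). After 5-FU in Tespa1-/-, 1 of 10 was called (Ppm1d, higher), against 19.4% of 17228 genes. DESeq2 called 1 (Ppm1d), against 16.6%, and 3 passed an unadjusted threshold of 0.05 in edgeR (Ppm1d, Bcor and Ezh2, 32.3% of all genes). The interaction, the genotype difference after 5-FU minus that in untreated LSKs, was called for 0 of 10 genes by edgeR and by DESeq2, against 5.01% of 18696 genes by edgeR and 6.92% by DESeq2. It had an unadjusted p below 0.05 for Kmt2a and Dnmt3b, and 18.7% of all genes did.

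The study's own rule, an unadjusted p below 0.05 with a fold change above 1.5, took 0 of the 10 genes in each of the comparisons of 2 groups. It took 6.74% of all genes between genotypes in untreated LSKs, 11.7% between genotypes after 5-FU, 9.88% with 5-FU in Tespa1+/+ and 14.4% with 5-FU in Tespa1-/-. The 95% interval of the difference lay within 1.5-fold either way for 9, 10, 7 and 8 of the 10 genes in these comparisons, in that order, and for 6 of 10 in the interaction. Groups that did not overlap in CPM were found for 4 of 10 genes between untreated genotypes (25.6% of all genes), for 3 between genotypes after 5-FU (33% of all genes), for 2 with 5-FU in Tespa1+/+ (28.5%) and for 2 with 5-FU in Tespa1-/- (38.6%). The median size of the log2 difference was 0.13, 0.11, 0.15 and 0.16 for the 10 genes and 0.12, 0.18, 0.15 and 0.17 for the genes of the same level range, 30.5 to 322 CPM.

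**Figure D2:**
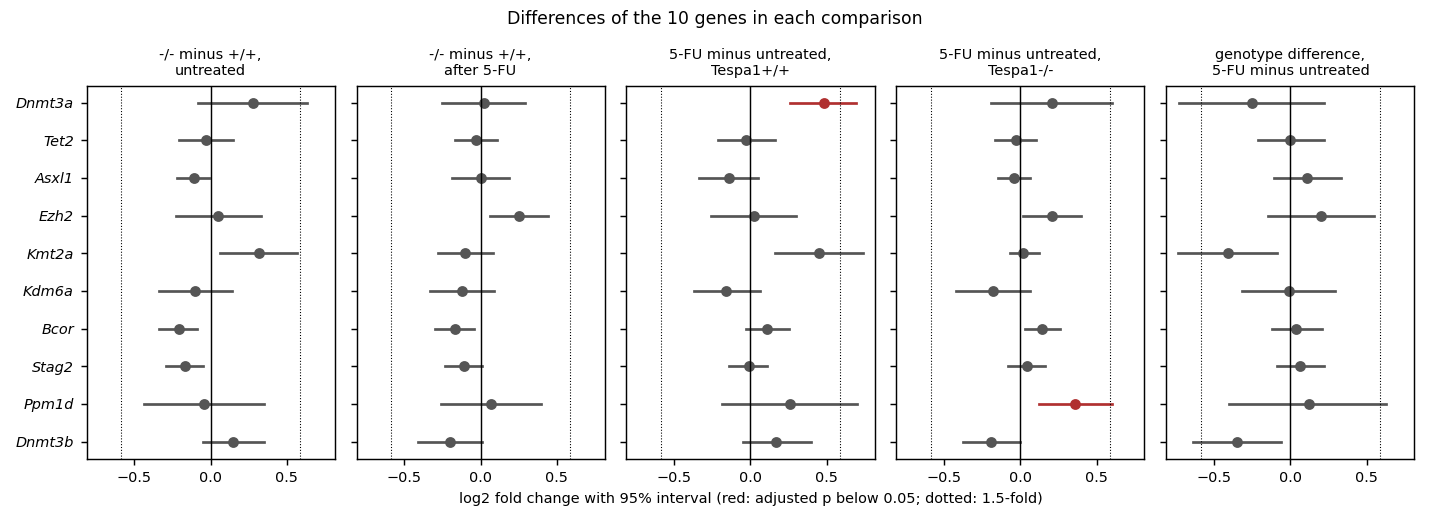
Log2 fold change of each gene (point) with its 95% interval (line) in the 5 comparisons, from edgeR, with 1.5-fold as dotted lines and an adjusted p below 0.05 in red. Of the 50 values, 2 are red, Dnmt3a with 5-FU in Tespa1+/+ (0.48) and Ppm1d with 5-FU in Tespa1-/- (0.36).

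Dnmt3a and Dnmt3b are the de novo DNA methyltransferases, and loss of Dnmt3a in HSCs is known to favour self-renewal over differentiation. Dnmt3a (ENSMUSG00000020661, chr12:3806007-3914443, plus strand, GRCm38) read 95.5, 75.6 and 87.7 CPM in untreated Tespa1+/+ and 124, 115 and 120 CPM in Tespa1+/+ after 5-FU. All 3 treated libraries were above all 3 untreated ones, a rise of 0.48 ± 0.09 (log2, SE, n = 3 and 3, 95% interval 0.26 to 0.69, adjusted p = 0.0149). The rise remained called in 12 of 15 alternative fits and was not called without Tespa1+/+ 5-FU replicate 1 (adjusted p = 0.0656), without Tespa1+/+ 5-FU replicate 3 (0.0553) or with the 12 libraries in 1 fit (0.0691). In Tespa1-/- the same gene read 88.2, 132 and 92.7 CPM untreated and 126, 97.2 and 142 CPM after 5-FU. These groups overlapped, with replicate 2 the highest untreated and the lowest treated library, and the difference was 0.21 ± 0.17 (adjusted p = 0.458). It became 0.41 (adjusted p = 0.117) without Tespa1-/- untreated replicate 2 and 0.35 (0.201) without Tespa1-/- 5-FU replicate 2, but 0.10, 0.13 and 0.08 without untreated replicate 1, untreated replicate 3 or 5-FU replicate 3. The interaction for Dnmt3a was -0.25 ± 0.22 (adjusted p = 0.607), and from -0.40 to -0.05 with a library left out, so the 2 responses were not shown to differ.

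Dnmt3b (ENSMUSG00000027478, chr2:153649450-153687730, plus strand) read 88.5, 75.5 and 73.4 CPM in untreated Tespa1+/+, 90.1, 91.1 and 82.6 CPM in untreated Tespa1-/-, 96.9, 86.0 and 84.4 CPM in Tespa1+/+ after 5-FU and 81.7, 83.0 and 68.9 CPM in Tespa1-/- after 5-FU. After 5-FU every Tespa1-/- library was below every Tespa1+/+ library, by -0.20 ± 0.09 (adjusted p = 0.217, -0.12 with 0.521 without Tespa1-/- 5-FU replicate 3, and -0.13 with 0.476 without Tespa1+/+ 5-FU replicate 1), whereas the untreated genotypes overlapped (0.15 ± 0.09, adjusted p = 0.406, 0.24 with 0.128 without Tespa1+/+ untreated replicate 1, and 0.10 with 0.622 without its replicate 3). With 5-FU in Tespa1-/- the difference was -0.19 ± 0.08 (adjusted p = 0.161), and offsets for gene length and GC content took it to -0.28 (adjusted p = 0.0402), whereas it was -0.11 (adjusted p = 0.357) without Tespa1-/- 5-FU replicate 3. The interaction was -0.35 ± 0.13 with an unadjusted p of 0.0219 and an adjusted p of 0.172, and thus failed the correction, as it did in 19 of 20 alternatives. Dnmt3b is the embryonic enzyme of the pair, and per kilobase, on gene models of 8.99 kb against 29.2 kb, it stood above Dnmt3a in every library. In CPM, without division by length, the order turned, and Dnmt3a was the higher in 11 of 12 libraries.

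Tet2 oxidises 5-methylcytosine and opposes DNA methylation, and its loss expands HSCs. Tet2 (ENSMUSG00000040943, chr3:133463679-133545139, minus strand) read 114, 100 and 120 CPM in untreated Tespa1+/+, 104, 114 and 110 CPM in untreated Tespa1-/-, 111, 107 and 110 CPM in Tespa1+/+ after 5-FU and 112, 105 and 106 CPM in Tespa1-/- after 5-FU. The 4 groups overlapped, and the fitted difference was -0.03 in each comparison of 2 groups, with 95% bounds between -0.21 and 0.16. Its relative Tet1 did differ: it read 81.6, 80.5 and 71.7 CPM in Tespa1+/+ and 48.7, 47.0 and 42.4 CPM in Tespa1-/- after 5-FU, a difference of -0.76 ± 0.09 (adjusted p = 0.000746). Between untreated genotypes the difference was -0.04 ± 0.08 (adjusted p = 0.837), and the interaction was called (-0.72 ± 0.12, adjusted p = 0.00381). Tet3 lay between 225 and 286 CPM and was not called. Dnmt1, the maintenance methyltransferase that copies methylation at replication, read 643, 660 and 636 CPM in Tespa1+/+ and 770, 743 and 765 CPM in Tespa1-/- after 5-FU, a rise of 0.23 ± 0.04 (adjusted p = 0.00309). The summed G2/M and S-phase genes were also higher in these Tespa1-/- libraries than in Tespa1+/+ after 5-FU. Their part in the Dnmt1 difference was not tested.

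Of 15 DNA methylation and demethylation partners tested, 0 were called between untreated genotypes by edgeR and by DESeq2 (3 at an unadjusted p below 0.05), and 6 by edgeR after 5-FU (4 higher, 2 lower). With 5-FU edgeR called 2 higher in Tespa1+/+, and 3 higher and 2 lower in Tespa1-/-. Of all genes, edgeR called 5.23%, 13.1%, 7.95% and 19.4% in these comparisons, in that order. The same shares stand beside the counts of the partner lists below. The median log2 difference of this list lay between -0.01 and 0.06 over the 5 comparisons, and that of all genes between -0.02 and 0.01.

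Ezh2, Asxl1 and Bcor belong to the Polycomb system, which silences genes through methylation of histone H3 at lysine 27 and ubiquitination of histone H2A. Ezh2 is the methyltransferase of PRC2 in dividing cells. Ezh2 (ENSMUSG00000029687, chr6:47530139-47595341, minus strand), whose promoter is printed above, read 119, 132 and 129 CPM in Tespa1+/+ and 149, 136 and 168 CPM in Tespa1-/- after 5-FU. The knockout libraries were above the others without overlap, by 0.25 ± 0.08 (95% interval 0.06 to 0.44), but the adjusted p was 0.0907 in edgeR, and over 15 alternatives it ran from 0.0414 to 0.251, passing in 2. The untreated libraries read 153, 110 and 112 CPM in Tespa1+/+ and 137, 129 and 122 CPM in Tespa1-/-, with Tespa1+/+ replicate 1 standing high, and overlapped (0.05 ± 0.12, adjusted p = 0.881). Without that replicate the untreated difference was 0.22 (adjusted p = 0.123). The interaction was not called (0.20 ± 0.16, adjusted p = 0.571). With 5-FU the difference was 0.21 ± 0.08 in Tespa1-/- (adjusted p = 0.117) and 0.02 ± 0.12 in Tespa1+/+ (adjusted p = 0.95). The Tespa1+/+ value became 0.19 without untreated replicate 1. The difference in Tespa1-/- passed in 1 of 15 alternatives, at 0.28 without Tespa1-/- 5-FU replicate 2 (adjusted p = 0.0434), and was lowest, at 0.13, without Tespa1-/- 5-FU replicate 3 (adjusted p = 0.278). The 3 libraries with the highest G2/M level, those of Tespa1-/- after 5-FU, held the third, the fifth and the first highest Ezh2 level of 12. The summed S-phase genes were also higher in these libraries than in Tespa1+/+ after 5-FU. The part of these shifts in the Ezh2 levels was not tested.

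Asxl1 is a cofactor of the BAP1 deubiquitinase, which removes the Polycomb mark from histone H2A. Asxl1 (ENSMUSG00000042548, chr2:153345829-153404007, plus strand) read 192, 191 and 195 CPM in untreated Tespa1+/+ and 179, 177 and 178 CPM in untreated Tespa1-/-. The 2 groups did not overlap and each spanned under 5 CPM, yet the difference was -0.11 ± 0.05 and failed the correction (adjusted p = 0.242). After 5-FU it read 151, 186 and 187 CPM in Tespa1+/+ and 169, 177 and 177 CPM in Tespa1-/-, with Tespa1+/+ replicate 1 the lowest of the 12 libraries. No comparison called it. Of the 9 ASXL and BAP1 partners, edgeR called 0 in each of the 5 comparisons (1 to 3 at an unadjusted p below 0.05), DESeq2 called 1 with 5-FU in Tespa1+/+ and 0 in the others, and their median log2 difference lay between -0.07 and 0.01. An RNA on the opposite strand of Asxl1, 2500004C02Rik, held 2.04% as many counts as Asxl1, and use of strand in counting is not given in the sources used here. This was the highest share of an overlapping gene among the 10 genes, 7 of which were overlapped by another annotated gene.

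Bcor is the corepressor that scaffolds a variant PRC1 complex. Bcor (ENSMUSG00000040363, chrX:12036740-12160355, minus strand) read 225, 214 and 209 CPM in untreated Tespa1+/+ and 192, 189 and 178 CPM in untreated Tespa1-/-. After 5-FU it read 247, 222 and 231 CPM in Tespa1+/+ and 205, 212 and 206 CPM in Tespa1-/-. The knockout libraries were the lower ones without overlap in both treatments, by -0.21 ± 0.05 (95% interval -0.34 to -0.09, adjusted p = 0.0678) and -0.17 ± 0.06 (95% interval -0.30 to -0.04, adjusted p = 0.0802). Neither passed in edgeR, and over 15 alternatives each the adjusted p ran from 0.0341 to 0.241 and from 0.0293 to 0.229, passing in 2 of 15 fits both times. Groups separated in the same direction in both comparisons of genotypes were found for 1 of the 10 genes, Bcor, and for 8.84% of the 16341 genes tested in both (4.99% lower in Tespa1-/-), so that a share of this size is near the background. With 5-FU in Tespa1-/- the treated libraries were all above the untreated ones (0.14 ± 0.05, adjusted p = 0.0781), and offsets for gene length and GC content took this to 0.06 (adjusted p = 0.44).

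Of 33 Polycomb partners, 0 were called between untreated genotypes by edgeR and by DESeq2 (5 at an unadjusted p below 0.05) and 4 by edgeR after 5-FU (2 higher, 2 lower), with median log2 differences of -0.11 and -0.15. With 5-FU edgeR called 1 lower in Tespa1+/+, and 1 higher and 3 lower in Tespa1-/-. Jarid2, a PRC2 subunit that guides the complex to its targets, read 76.9, 80.0 and 80.7 CPM in untreated and 122, 109 and 133 CPM in treated Tespa1-/- LSKs. This rise was 0.61 ± 0.08 (adjusted p = 0.000867), and the interaction was 0.80 ± 0.15 (adjusted p = 0.00638).

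Kmt2a and Kdm6a act on the opposite side, the former as the MLL1 methyltransferase of histone H3 lysine 4 that HSCs need to maintain Hox genes, the latter as the UTX demethylase of lysine 27. Kmt2a (ENSMUSG00000002028, chr9:44803355-44881296, minus strand) read 241, 232 and 320 CPM in untreated Tespa1+/+, against 321, 339 and 324 CPM in untreated Tespa1-/-. After 5-FU it read 310, 379 and 392 CPM in Tespa1+/+ and 342, 330 and 337 CPM in Tespa1-/-. The untreated Tespa1+/+ group thus held the 2 lowest libraries of 12, and its replicate 3 lay with the other groups. The difference was 0.32 ± 0.11 between untreated genotypes (adjusted p = 0.172) and 0.45 ± 0.13 with 5-FU in Tespa1+/+ (adjusted p = 0.0693), and the interaction was -0.41 ± 0.15 (adjusted p = 0.153). These passed in 2 of 15, 8 of 15 and 1 of 20 alternative fits, in that order, and moved with single libraries. Without untreated Tespa1+/+ replicate 3 they became 0.47 (adjusted p = 0.00352), 0.61 (adjusted p = 0.0128) and -0.57 (adjusted p = 0.011). Without untreated Tespa1+/+ replicate 1 or 2 the genotype difference was 0.25 or 0.23 (adjusted p = 0.293 and 0.336) and the 5-FU difference 0.39 or 0.36 (adjusted p = 0.171 and 0.205). The genotype difference after 5-FU was -0.10 (adjusted p = 0.473) and passed in 1 of 15 alternative fits. It was -0.20 (adjusted p = 0.0464) without Tespa1+/+ 5-FU replicate 1, but -0.06 (adjusted p = 0.757) and -0.04 (adjusted p = 0.842) without Tespa1+/+ 5-FU replicate 2 or 3.

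Kdm6a (ENSMUSG00000037369, chrX:18162575-18279936, plus strand) read 60.1, 66.7 and 72.5 CPM in untreated Tespa1+/+, 65.4, 54.1 and 65.9 CPM in untreated Tespa1-/-, 60.6, 59.3 and 58.7 CPM in Tespa1+/+ after 5-FU and 49.2, 57.0 and 59.0 CPM in Tespa1-/- after 5-FU. Every comparison overlapped, with differences from -0.18 to -0.10 between 2 groups and an adjusted p of at least 0.28. None was called with a library left out, but single libraries moved the values. The difference between untreated genotypes went from -0.10 to -0.01 without Tespa1-/- untreated replicate 2 and to -0.04 without Tespa1+/+ untreated replicate 3. That after 5-FU went from -0.12 to -0.04 without Tespa1-/- 5-FU replicate 1 and to -0.0045 (adjusted p = 0.984) with offsets for gene length and GC content, which also took the untreated one to -0.06. The 5-FU difference in Tespa1-/- went from -0.18 to -0.27 without untreated replicate 2 (adjusted p = 0.137) and to -0.10 without 5-FU replicate 1. Its paralog Kdm6b (JMJD3), the inducible lysine 27 demethylase, was called in all 5 comparisons. It read 1064, 1062 and 1106 CPM in untreated Tespa1+/+, 518, 535 and 555 CPM in untreated Tespa1-/-, 581, 544 and 541 CPM in Tespa1+/+ after 5-FU and 328, 350 and 332 CPM in Tespa1-/- after 5-FU. It fell by 1.0 ± 0.04 on the log2 scale between untreated genotypes, by 0.73 ± 0.05 between genotypes after 5-FU, and with 5-FU by 0.95 ± 0.04 in Tespa1+/+ and 0.68 ± 0.04 in Tespa1-/- (adjusted p of at most 2.05e-05). The interaction was 0.28 ± 0.06 (adjusted p = 0.0141), the genotype difference being the smaller after 5-FU.

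Of 25 MLL and UTX partners, Kdm6b among them, edgeR called 3 between untreated genotypes, all lower, and 7 between genotypes after 5-FU, 1 higher and 6 lower. With 5-FU it called 1 higher and 3 lower in Tespa1+/+, and 1 higher and 6 lower in Tespa1-/-. Mllt3 (AF9), a subunit of the super elongation complex, rose by 0.57 ± 0.10 with 5-FU in Tespa1+/+, from 42.6, 42.6 and 41.9 CPM to 61.9, 69.9 and 56.4 CPM (adjusted p = 0.00997). Its interaction was not called (-0.28 ± 0.14, adjusted p = 0.293). Hoxa9, a classical Kmt2a target, fell with 5-FU in Tespa1-/- by 0.68 ± 0.16, from 36.0, 37.9 and 53 CPM to 24.2, 30.8 and 25.1 CPM (adjusted p = 0.0188). The Hoxa9 interaction was not called either (-0.34 ± 0.22, adjusted p = 0.452).

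Stag2 is a subunit of cohesin, the ring that holds sister chromatids and shapes chromatin loops. Stag2 (ENSMUSG00000025862, chrX:42149317-42277185, plus strand) read 288, 309 and 304 CPM in untreated Tespa1+/+ and 267, 279 and 253 CPM in untreated Tespa1-/-. These did not overlap, a difference of -0.17 ± 0.05 that failed the correction (adjusted p = 0.123). After 5-FU it read 300, 307 and 285 CPM in Tespa1+/+ and 287, 268 and 274 CPM in Tespa1-/-, which overlapped by 1 library in each group (-0.11 ± 0.05, adjusted p = 0.212). With 5-FU the difference was -0.01 ± 0.05 in Tespa1+/+ and 0.04 ± 0.05 in Tespa1-/- (adjusted p = 0.644). Offsets for gene length and GC content turned the genotype difference after 5-FU to 0.09 (adjusted p = 0.297) and took the 5-FU difference in Tespa1-/- to 0.19 (adjusted p = 0.0235, and 0.0439 with the replicate block in addition), which was then called. Of 15 cohesin partners, edgeR called 0 between untreated genotypes, 1 higher and 1 lower after 5-FU, 0 with 5-FU in Tespa1+/+, and 2 higher and 2 lower with 5-FU in Tespa1-/-. Where edgeR called 0, DESeq2 also called 0, and 4 and 5 partners, in that order, had an unadjusted p below 0.05. Esco2, the acetyltransferase that locks cohesin during S phase, was among those called higher with 5-FU in Tespa1-/-, from 30.9, 30.5 and 29.2 CPM to 46.1, 44.1 and 48.5 CPM (0.60 ± 0.08, adjusted p = 0.00122), and its interaction was 0.40 ± 0.23 (adjusted p = 0.387).

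Ppm1d (WIP1) is the phosphatase that p53 induces and that ends the p53 response. Histone H2AX is among its substrates. Ppm1d (ENSMUSG00000020525, chr11:85311244-85347066, plus strand) read 25.5, 26.4 and 28.3 CPM in untreated and 30.9, 37.7 and 35.3 CPM in treated Tespa1-/- LSKs. All treated libraries were above all untreated ones, a rise of 0.36 ± 0.11 (n = 3 and 3, 95% interval 0.12 to 0.60, adjusted p = 0.0425). The adjusted p ran from 0.0246 to 0.172 over 15 alternatives, and the call was lost in 10 of them, among them those without Tespa1-/- untreated replicate 1, 2 or 3 (0.142, 0.126 and 0.0747) and without Tespa1-/- 5-FU replicate 2 or 3 (0.118 and 0.0921). In Tespa1+/+ it read 30.9, 20.1 and 31.7 CPM untreated and 28.1, 31.4 and 39.1 CPM after 5-FU, with untreated replicate 2 the lowest of all 12, and overlapped (0.26 ± 0.20, adjusted p = 0.521, 0.07 with 0.879 without that library, and 0.11 with 0.842 without Tespa1+/+ 5-FU replicate 3). The interaction was 0.12 ± 0.24 (adjusted p = 0.857), and from 0.0010 to 0.30 with a library left out. Ppm1d was the least expressed of the 10 genes in counts, with 452 to 974 per library.

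Of 13 PPM1D and p53 partners, edgeR called 1 between untreated genotypes, which was lower, and 5 between genotypes after 5-FU, 3 higher and 2 lower. With 5-FU it called 1 lower in Tespa1+/+, and 2 higher and 4 lower in Tespa1-/-. Cdkn1a (p21), the cell-cycle inhibitor that p53 induces, read 144, 145 and 163 CPM in untreated Tespa1+/+ and 61.0, 58.0 and 59.1 CPM in untreated Tespa1-/-, a difference of -1.34 ± 0.07 on the log2 scale (adjusted p = 3.31e-05). After 5-FU it read 89.9, 84.0 and 95.2 CPM in Tespa1+/+ and 51.1, 52.3 and 45.6 CPM in Tespa1-/- (-0.86 ± 0.09, adjusted p = 0.000274), and with 5-FU in Tespa1+/+ it fell by 0.74 ± 0.08 (adjusted p = 0.000631). With 5-FU in Tespa1-/- Cdkn1a fell by 0.27 ± 0.08 (adjusted p = 0.0404), and its interaction was 0.49 ± 0.11 (adjusted p = 0.02). H2afx, which encodes the substrate of Ppm1d, read 169, 169 and 181 CPM in Tespa1+/+ and 269, 285 and 258 CPM in Tespa1-/- after 5-FU (0.64 ± 0.06, adjusted p = 0.000151). The interaction of H2afx was 0.52 ± 0.08 (adjusted p = 0.00187), and that of Trp53bp1, a reader of DNA breaks, was -0.62 ± 0.09 (adjusted p = 0.00153).

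**Figure D3:**
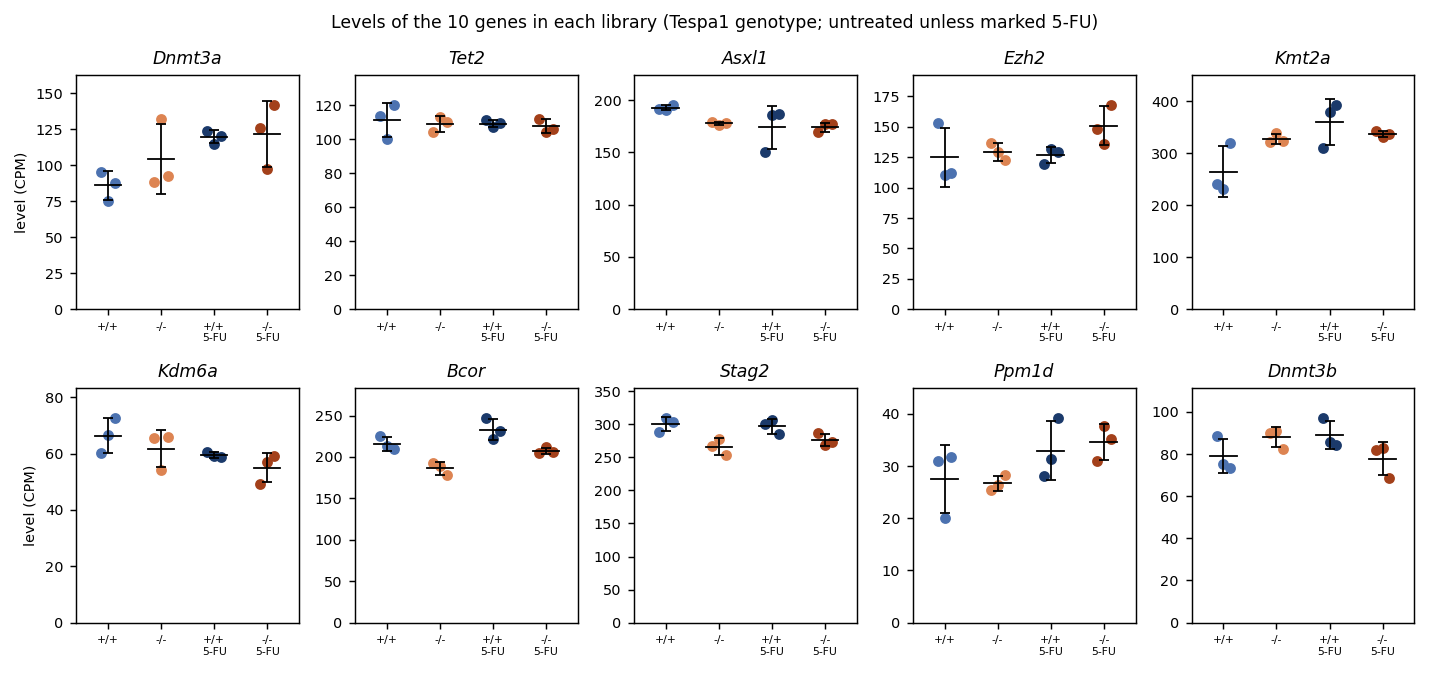
Level in CPM of each gene in every library (points, 3 per group), with the group mean and SD as lines and every axis starting at 0. Dnmt3a in Tespa1+/+ after 5-FU (115 to 124 CPM) lies above untreated Tespa1+/+ (75.6 to 95.5 CPM), and the 4 Tet2 groups lie between 100 and 120 CPM.

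Over the 136 tested members of 7 lists, which include 26 other genes of clonal hematopoiesis, 8 were called between untreated genotypes (5.88%), 29 between genotypes after 5-FU (21.3%), 15 with 5-FU in Tespa1+/+ (11%), 34 with 5-FU in Tespa1-/- (25%) and 14 in the interaction (10.3%). Among all genes at the level of the 10 regulators the corresponding shares were 9.54%, 22.5%, 13%, 29.4% and 9.43%. Among the other clonal hematopoiesis genes, 4, 5, 7, 8 and 3 of 26 were called. Most of these were lower: 3, 4, 6, 6 and 3, against 1, 1, 1, 2 and 0 higher. Gata2, a transcription factor of HSCs, rose with 5-FU in Tespa1+/+ from 72.2, 81.4 and 72.5 CPM to 145, 177 and 176 CPM (1.14 ± 0.10, adjusted p = 0.000151). It was also called higher with 5-FU in Tespa1-/- (0.60 ± 0.15, adjusted p = 0.0227), and its interaction was not called (-0.53 ± 0.20, adjusted p = 0.159). Cebpa, the driver of myeloid commitment, was higher in Tespa1-/- both untreated (88.6, 90.1 and 85.6 against 76.2, 63.3 and 63.3 CPM, 0.38 ± 0.09, adjusted p = 0.0419) and after 5-FU (89.5, 107 and 81.9 against 50.2, 55.4 and 69.3 CPM, 0.67 ± 0.14, adjusted p = 0.0114).

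Ratios of each gene to its paralog within a library do not depend on the scaling between libraries. The log2 ratio of levels per kilobase was compared for 7 pairs in 4 comparisons, 28 in all, with an exact permutation test (two-sided) that cannot give a p under 0.1 for 3 against 3 libraries, so that none could pass. The Kdm6a/Kdm6b ratio was -4.87, -4.72 and -4.66 in untreated Tespa1+/+, -3.71, -4.03 and -3.80 in untreated Tespa1-/-, -3.99, -3.93 and -3.93 in Tespa1+/+ after 5-FU and -3.47, -3.35 and -3.22 in Tespa1-/- after 5-FU. It was the only pair without overlap in all 4 comparisons, with differences of 0.90, 0.61, 0.80 and 0.51 (exact p = 0.1 and adjusted p = 0.4 for each). The Dnmt3a/Dnmt3b ratio was higher by 0.31 with 5-FU in Tespa1+/+, going from -1.59, -1.70 and -1.44 to -1.34, -1.28 and -1.19. The Stag2/Stag1 ratio differed in Tespa1-/- by -0.10 untreated and -0.16 after 5-FU, but the nearest libraries of the 2 genotypes gave the same value to 2 decimals, 2.02 untreated and 2.05 after 5-FU. The other 21 comparisons overlapped, among them all those of Tet2/Tet3, Ezh2/Ezh1, Asxl1/Asxl2 and Bcor/Bcorl1. Per kilobase Ezh2, Stag2, Asxl1 and Bcor were above their paralogs in every library, and Dnmt3a, Tet2 and Kdm6a below theirs. Without division by length these orders held in every library for 6 pairs and turned for Dnmt3a/Dnmt3b in 11 of 12.

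**Figure D4:**
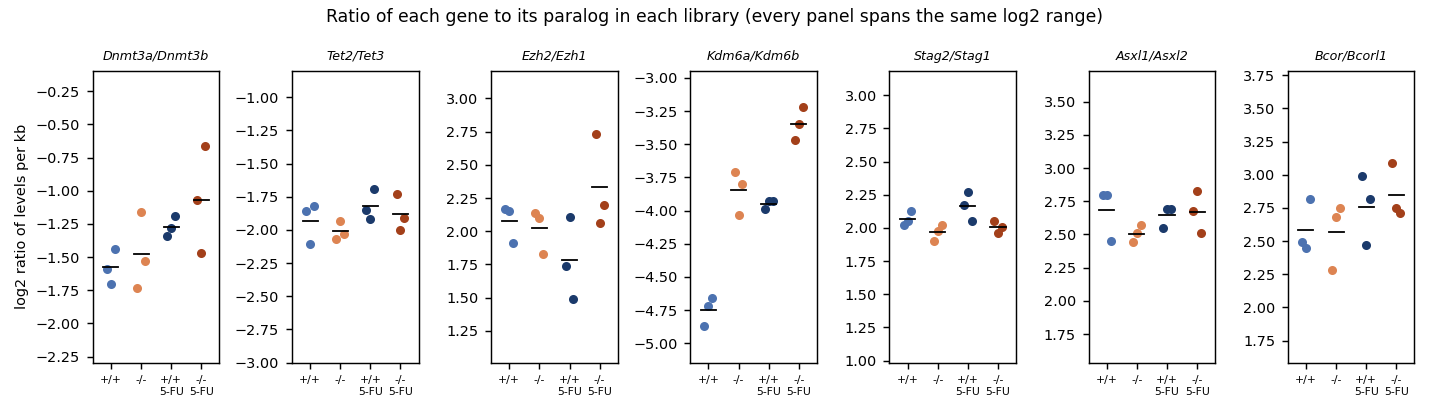
Log2 ratio of the level per kilobase of each gene to that of its paralog, in each library (points, 3 per group) with group means as lines, on axes that all span the same log2 range. Kdm6a/Kdm6b goes from between -4.87 and -4.66 in untreated Tespa1+/+ to between -3.47 and -3.22 in Tespa1-/- after 5-FU.

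The genes most like the 3 regulators of widest range were found by the root mean square difference of centred log2(CPM + 1) over the 12 libraries, among 9434 others. They were Cox5b (0.151) and Asph (0.152) for Dnmt3a, Ogt (0.070) and Hook3 (0.108) for Kmt2a, and Unc13d (0.116) and Golga2 (0.128) for Ppm1d. Between the 10 regulators themselves this distance was smallest for Bcor and Stag2 (0.093) and largest for Dnmt3a and Kdm6a (0.384), which in Tespa1-/- after 5-FU had their highest and lowest group means. These distances describe the 12 libraries and say nothing of shared control.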

How the data were processed

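RNA-seq of LSKs from 12 libraries was used. According to the submitters' processing notes, CASAVA 1.8, HISAT2, StringTie and edgeR were used with GRCm38. The authors deposited, for each library, the number of reads counted per gene without normalization, and FPKM values. The deposited FPKM values follow from the same counts and a length per gene, and only that implied length was used, for levels per kilobase. Use of strand in counting is not given in the sources used here. Groups came from the labels, and dose, day and age from the study's methods and labels.

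Counts were filtered with filterByExpr (minimum count 10), scaled by TMM and tested with the quasi-likelihood test of edgeR 4.0.16 in R 4.3.3, on the 6 libraries of a comparison of 2 groups and on 12 for the interaction. P-values were adjusted by the Benjamini-Hochberg method over all genes tested, and genes were called at an adjusted p below 0.05. Errors of log2 fold changes are standard errors of the fit. Levels are CPM with TMM factors of the 12 libraries. Replicates of a group differed by more than counting noise, with a median chi-square per gene of 2.05 to 5.73. Ppm1d held the fewest counts of the 10 genes, so that relative counting error is largest for it, and counts cover counting error only. The alternatives were DESeq2 1.42.0, RLE factors, library totals, other filters, length and GC offsets, 12 libraries in 1 fit, a replicate block and leaving out each library. Paralog ratios, likeness and promoter matches were computed with Python 3.11, pandas 2.3.3, NumPy 2.4.6 and SciPy 1.17.1, and figures with matplotlib 3.10.9.

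The 10 genes and all lists were chosen with earlier results of these data known. The text names the 10 genes, their paralogs, Dnmt1 and Tet1, Tespa1 as the deleted gene, and the markers Kit, Ly6a and Cd3e. In each comparison it also names the 2 largest rises and 2 largest falls among called partner genes with a mean of at least 1 CPM and groups that do not overlap. For the 3 genes of widest range it names the 2 genes of most similar pattern among those of at least 10 CPM. No protein sequence was used here.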

Additional observations from a re-analysis of the deposited data

Results flagged for a closer look

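The genotype difference after 5-FU differed from that in untreated LSKs, by the interaction term of edgeR with Benjamini-Hochberg adjustment, for 9 of 31 genes named and tested, none of them among the 10 regulators (the genes named for likeness of pattern were not counted). Of all genes, 5.01% were called in the interaction. The 2 counts cannot be read against each other, since the rule for naming took in the largest called interactions among the partner genes. These were Jarid2, H2afx, Tet1 and Trp53bp1, and only Trp53bp1 was named on that ground alone. The difference of the differences (log2, after 5-FU minus untreated) was 0.28 for Kdm6b, 0.20 for Dnmt1 (adjusted p = 0.0344), -0.72 for Tet1, 0.80 for Jarid2, 0.49 for Cdkn1a, -0.27 for Kit (adjusted p = 0.0298), 0.52 for H2afx, -0.62 for Trp53bp1 and -1.05 for Tespa1 (adjusted p = 0.00104). Tespa1 is the deleted gene, and its level in the knockout libraries was 34.8 CPM untreated and 19.3 CPM after 5-FU. The Tespa1-/- libraries after 5-FU also held more of the G2/M, neutrophil and erythroid genes than the other groups. Of 18 S-phase genes, 5 were called in the interaction, all higher. The part of these shifts in the interactions listed above was not tested. Groups of 3 libraries were not searched for outlying samples.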

How the results depend on the processing

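The number of the 10 genes called was 0 between untreated genotypes, and became 2 with DESeq2 (Kmt2a and Bcor), 1 with 12 libraries in 1 fit (Bcor) and 0 to 1 when each library was left out. Between genotypes after 5-FU it was 0, and became 1 with DESeq2 (Ezh2), 1 with library totals (Bcor), 2 with length and GC offsets (Ezh2 and Bcor) and 0 to 1 with a library left out. With 5-FU in Tespa1+/+ it was 1, and became 2 (Dnmt3a and Kmt2a) with DESeq2, library totals, no filter, 10 counts in every library, the replicate block, and length and GC offsets with the replicate block, and 0 to 2 with a library left out. It stayed 1 with 12 libraries in 1 fit, with Kmt2a (adjusted p = 0.016) in place of Dnmt3a (0.0691). With 5-FU in Tespa1-/- it was 1, and became 0 without a filter, with the replicate block or with 12 libraries in 1 fit, 2 with length and GC offsets, with or without the replicate block (Stag2 at 0.19 and Dnmt3b at -0.28 in place of Ppm1d), and 0 to 1 with a library left out. For the interaction it was 0, and became 1 with length and GC offsets and the replicate block (Dnmt3b) and 0 to 1 with a library left out. Over all genes the alternatives called 1.9% to 6.45% between untreated genotypes, 5.98% to 15.5% after 5-FU, 3.88% to 11.3% with 5-FU in Tespa1+/+, 7.87% to 21.5% with 5-FU in Tespa1-/- and 2.01% to 6.92% in the interaction. The number of paralog ratios without overlap, 7 of 28, ran from 5 to 10 with a library left out. No pairing by replicate number was seen: the correlation of deviations between same-numbered libraries ran from -0.115 to 0.012. Such values cannot exclude a pairing with a weak effect. The cause of these changes was not tested.

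Of 800 values of the 10 genes under alternatives, 53 had the opposite sign, in 15 of 50 results, none called, with main values of at most 0.11 in size. With length and GC offsets Tet2 became 0.02, 0.10 and 0.04 (untreated genotypes, genotypes after 5-FU, 5-FU in Tespa1-/-), Stag2 0.09 (genotypes after 5-FU), Ezh2 -0.0080 (5-FU in Tespa1+/+) and, in the interaction, Kdm6a 0.07 and Bcor -0.0035. With the replicate block in addition they were 0.03, 0.10 and 0.04 for Tet2, 0.09 for Stag2, 0.06 for Kdm6a and -0.0022 for Bcor. With library totals Dnmt3a became -0.0099 (genotypes after 5-FU), Tet2 0.02 and Stag2 0.03 (5-FU in Tespa1+/+), and Tet2 -0.04 and Bcor -0.0001 (interaction). Asxl1 after 5-FU became 0.0045 without a filter and 0.0025 with the replicate block, and the Tet2 interaction -0.0007 with RLE factors and -0.02 with 10 counts in every library. With a library left out, differences between untreated genotypes ran from -0.10 to 0.03 for Tet2, -0.04 to 0.22 for Ezh2 and -0.23 to 0.06 for Ppm1d, and after 5-FU from -0.10 to 0.16 for Dnmt3a, -0.10 to 0.05 for Asxl1 and -0.03 to 0.21 for Ppm1d. With 5-FU in Tespa1+/+ they ran from -0.10 to 0.03 for Tet2, -0.07 to 0.19 for Ezh2 and -0.04 to 0.02 for Stag2, and in the interaction from -0.05 to 0.08 for Tet2, -0.10 to 0.06 for Kdm6a and -0.0075 to 0.07 for Bcor.

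Over all genes, 892 were called between untreated genotypes and 338 to 1334 in the alternatives, with 454 under the replicate block. With 5-FU in Tespa1+/+ 1352 were called (783 to 2113), and in the interaction 936 (573 to 1534). The alternatives stayed within 1.5 times the main count for genotypes after 5-FU (2261) and 5-FU in Tespa1-/- (3336). With library totals the share of called genes that were higher went from 47.4% to 58.2% with 5-FU in Tespa1+/+ and from 60.3% to 50.5% in the interaction. Each of the 10 genes held at least 452 counts in every library, and each group had 3 libraries. The parts of depth and of library number in the width of the intervals were not tested.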
